A study of Mus musculus with 6 samples.

Results

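The extracellular matrix of liver is laid down largely by hepatic stellate cells, and the genes described here are 37 listed genes of these cells, of matrix proteins and of matrix remodelling, followed in liver tumours of mice with and without a transgene for AEG-1. The list was set by name, and a gene was measured where a probe set carried its symbol and no other. Such a probe set was found for 34 of the 37 genes, of 12393 genes measured in this way in all. Fbn1, Loxl2 and Spp1 had none and were not analysed here. Ctgf was found under its current symbol, Ccn2. Where a gene had several probe sets, the one with the highest mean over the 6 arrays stood for it.

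The tumours came from 6 male mice, 3 carrying the Alb/AEG-1 transgene and 3 wild type, each on its own Affymetrix expression array. All 6 mice, wild type included, had received a single injection of N-nitrosodiethylamine (DEN), a carcinogen that hepatocytes activate, at 10 µg per g body weight and 14 days of age, and tumours were collected at 28 weeks. The labels give CD-1 as the background strain, and the transgene was injected into embryos of B6CBAF1/J matings. Alb stands for the albumin promoter, which is active in hepatocytes, whereas most of the genes below are known mainly from stellate cells, fibroblasts, smooth muscle and endothelium.

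Quiescent stellate cells store retinoids. After injury they turn into contractile myofibroblasts, which secrete fibrillar collagens under the influence of transforming growth factor beta and platelet-derived growth factor. Lysyl oxidases crosslink the collagen and elastin that have been laid down, matrix metalloproteinases cut matrix proteins, and the TIMP proteins inhibit the metalloproteinases. Basement membranes are a separate, sheet-like matrix under endothelium and epithelium, built on type IV collagen, laminins and nidogen.

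Levels are on the log2 scale as deposited, on which a difference of 1 is a doubling. The lowest and highest values on the arrays were 2.22 and 14.86, and array medians differed by at most 0.0289. The median level of a probe set was 5.83, and probe sets below it are called dim. Percentiles rank the level of a probe set among all probe sets. Hepatocyte markers were at a median level of 13.36 and differed between the genotypes by a median of -0.01. Mtdh, the mouse gene for AEG-1, had 6 probe sets. The brightest differed by 0.20 ± 0.13 (SE, limma adjusted p = 0.677). They are no check of the genotype, since the labels do not state from which species the transgene came. The titles carry animal numbers in a lower range (Alb/AEG-1 replicates 1 and 2, wild-type replicate 1) and a higher range (Alb/AEG-1 replicate 3, wild-type replicates 2 and 3), so differences within each range are given for the 5 of the 34 genes with an unadjusted p below 0.05 and for some others.

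None of the 34 genes passed an adjusted p of 0.05 in limma, and across the whole array 1 of 22626 probe sets did (0.00442%). The lowest adjusted p among the 34 was 0.596. At an unadjusted p below 0.05 in limma there were 5 of the 34 (14.7%), against 8.33% of all genes. These were Col4a1 and Col4a2, with higher means in Alb/AEG-1 tumours, and Loxl1, Mmp2 and Timp2, with lower ones. In the higher direction 3.86% of all genes were below this p and in the lower direction 4.47%. The 2 genotypes did not overlap in 5 of the 34 genes, all lower in Alb/AEG-1 tumours, against 15.1% of all genes in either direction, 6.77% in the higher one and 8.31% in the lower one. These were Loxl1, Mmp2, Timp2, Col6a1 and Des, of which Loxl1, Mmp2 and Col6a1 were on dim probe sets. The share without overlap in either direction was thus near that of all genes.

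The median difference over the 34 genes was -0.11 log2, against -0.01 over all genes. It was -0.0181 without wild-type replicate 3. Differences were positive in 11 genes and negative in 23, so that 32.4% were positive, against 47.8% of all genes. They ran between -0.50 for Loxl1 and 0.75 for Col4a1. Col4a1 was the 1 of the 34 to differ by at least 1.5-fold, a size reached by 1.48% of all genes. In whole tumour tissue, fewer cells of a type and less RNA per cell cannot be told apart. Counting every probe set of these genes, 24 of 68 were positive and 44 negative, with 4 in each direction at an unadjusted p below 0.05 in limma. The matching share over all probe sets was not counted. Probe sets of the same gene, such as those of Timp2, are not independent, so no result is read from these counts.

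**Figure D1:**
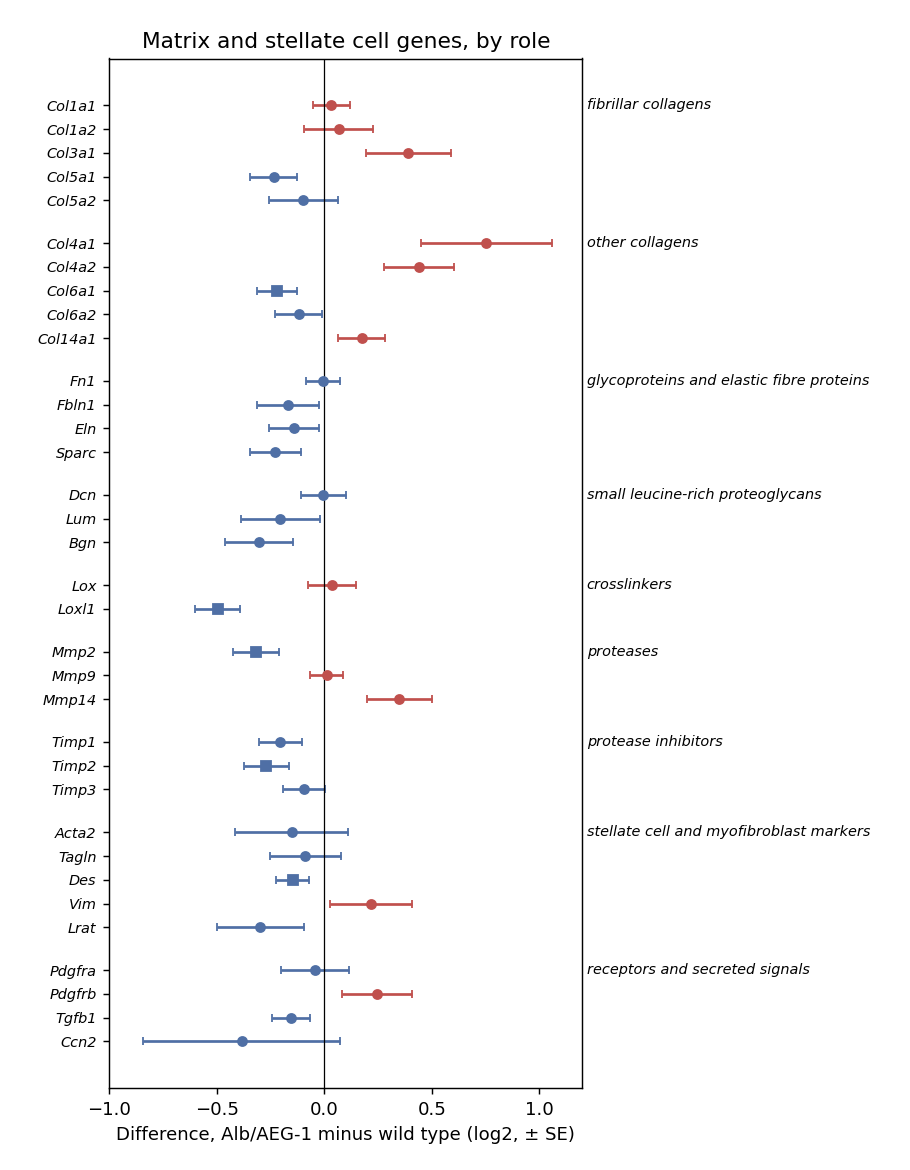
Difference between Alb/AEG-1 and wild-type tumours (horizontal axis, log2, Alb/AEG-1 minus wild type, bars ± SE from limma, n = 3 arrays per genotype) for the 34 measured genes grouped by role. Red marks lie above 0 and blue marks below it. Squares mark the 5 genes whose genotypes do not overlap, all at negative differences, and Col4a1 has the largest positive difference at 0.75.

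The fibrillar collagens, which form the tensile fibres of scar tissue, did not differ past the threshold in any of the 5 members. Col1a1 encodes the main chain of type I collagen. Its levels were 4.85, 4.77 and 4.96 in Alb/AEG-1 tumours and 4.80, 4.88 and 4.79 in wild-type tumours, a difference of 0.03 ± 0.09 (SE, limma adjusted p = 0.917). The genotypes overlapped, and all 6 values lay within a narrow range. Both Col1a1 probe sets were dim, at percentiles 34.2 and 24.0. Whether such dim probe sets would show a change was not tested.

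Col1a2, the partner chain of type I collagen, differed by 0.07 ± 0.16 on its brightest probe set. A dimmer probe set of the same gene had levels of 4.56, 4.60 and 4.48 in Alb/AEG-1 tumours and 4.13, 3.70 and 4.17 in wild-type tumours. There the genotypes did not overlap and the difference was 0.55 ± 0.13 (limma, unadjusted p = 0.004, adjusted p = 0.596), so the 2 probe sets of Col1a2 disagree in size. Col3a1, the type III collagen that is laid down with type I, had levels of 8.46, 8.32 and 8.69 in Alb/AEG-1 tumours and 8.28, 7.66 and 8.37 in wild-type tumours. Wild-type replicate 2 lay well below the other arrays. The difference was 0.39 ± 0.20 (limma adjusted p = 0.634) and 0.17 without that replicate. It was 0.11 among the lower-numbered mice and 0.68 among the higher-numbered.

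Col5a1 and Col5a2 encode type V collagen, which nucleates type I fibrils. Col5a1 was at 5.78, 5.67 and 5.87 in Alb/AEG-1 tumours and at 5.85, 6.19 and 5.99 in wild-type tumours (-0.24 ± 0.11, limma adjusted p = 0.628), with 1 wild-type value inside the Alb/AEG-1 range. Of its 3 probe sets, 2 were negative and 1 differed by 0.09. Col5a2 differed by -0.10 ± 0.16. Among the 5 fibrillar collagens, Alb/AEG-1 replicate 3 held the highest value in 4.

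Type IV collagen, the scaffold of basement membranes, showed the widest positive differences among the 34 genes. Its 2 common chains are encoded by Col4a1 and Col4a2, which lie head to head on opposite strands. In the RefSeq annotation Col4a1 starts at base 11312826 of chromosome 8 on the minus strand and Col4a2 at base 11312805 on the plus strand, so that their first 22 bases overlap. The stretch that holds both starts is shown because the genes differed in the same direction, with the 22 overlapping bases in capitals (GRCm38.p6, plus strand, chr8:11312801-11312830).
Col4a1 and Col4a2: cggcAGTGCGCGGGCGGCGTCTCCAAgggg
A GC box, GGGCGG, lies within the capitals.

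Col4a1 was at 7.52, 7.32 and 6.69 in Alb/AEG-1 tumours and at 7.04, 5.98 and 6.24 in wild-type tumours. The difference was 0.75 ± 0.30 (SE, 1.69-fold, limma unadjusted p = 0.04, adjusted p = 0.614), and the genotypes overlapped because wild-type replicate 1 lay above Alb/AEG-1 replicate 3. Both of these mice differ in animal number range from most of their group. The difference was 0.37 among mice of the lower numbers and 0.58 among those of the higher. With the range as a term in limma it was 0.48 (unadjusted p = 0.00533). The other probe set of Col4a1 differed by 0.22.

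Col4a2 was at 7.54, 7.35 and 7.17 in Alb/AEG-1 tumours and at 7.23, 6.84 and 6.66 in wild-type tumours. The same wild-type replicate 1 overlapped the Alb/AEG-1 range. The difference was 0.44 ± 0.16 (limma unadjusted p = 0.0277, adjusted p = 0.611), with 0.22 among the lower-numbered mice and 0.42 among the higher-numbered. Over the 6 arrays left out in turn it ran between 0.32 and 0.60, and that of Col4a1 between 0.53 and 1.06. Neither gene was below an unadjusted p of 0.05 when wild-type replicate 2 or 3, or Alb/AEG-1 replicate 1 or 2, was left out.

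The other nonfibrillar collagens varied in direction, with negative differences for both type VI chains and probe sets of opposite sign for Col14a1. Col6a1, a chain of the beaded filaments of type VI collagen, was at 4.77, 4.59 and 4.87 in Alb/AEG-1 tumours and at 4.95, 4.96 and 4.98 in wild-type tumours. Every wild-type value lay above every Alb/AEG-1 value, with a difference of -0.22 ± 0.09 (limma adjusted p = 0.618). Col6a2, its partner chain, differed by -0.12 ± 0.11 on its brightest probe set and by 0.08 on the other. Col14a1, a collagen on the surface of fibrils, differed by 0.17 ± 0.11 on its brightest probe set and by -0.17 on the other.

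Other basement membrane genes, taken from a list of laminins and basement membrane proteins, were measured in 15 of 16 cases. In limma 0 of the 15 passed an adjusted p of 0.05. At an unadjusted p below 0.05 there were 2 (13.3%, against 8.33% of all genes), Nid1 and Smoc2, both with higher means in Alb/AEG-1 tumours, and 10 of the 15 differences were positive, with a median of 0.08. Nid1, the nidogen that links laminin to type IV collagen, was at 7.58, 8.74 and 7.24 in Alb/AEG-1 tumours and at 6.81, 6.38 and 6.76 in wild-type tumours. The genotypes did not overlap, and Alb/AEG-1 replicate 2 stood highest. The difference was 1.21 ± 0.35 (limma unadjusted p = 0.00995, adjusted p = 0.596) and 0.76 without that replicate. Lower-numbered mice differed by 1.35 in Nid1 and higher-numbered mice by 0.68. The other probe set of Nid1 differed by 0.40.

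Smoc2, a calcium-binding matricellular protein, differed by 0.39 ± 0.12 with no overlap. The laminin chain genes Lama3 and Lama5 differed by -0.26 ± 0.12 and -0.23 ± 0.12, so the list did not move in 1 direction. Among 19 further collagens, Col4a5, another type IV chain, was at 3.995, 4.84 and 3.91 in Alb/AEG-1 tumours and at 3.83, 2.90 and 3.53 in wild-type tumours. This probe set was dim, at percentile 17.9. The genotypes did not overlap, and the difference was 0.83 ± 0.30 (limma unadjusted p = 0.0267, adjusted p = 0.611), with 0.13 on its other probe set. Without Alb/AEG-1 replicate 2 it was 0.534 and without wild-type replicate 2 it was 0.569, both above an unadjusted p of 0.05. Also named from that list were Col13a1, a transmembrane collagen (-0.46 ± 0.11), Col8a1 (0.29 ± 0.11, and -0.03 on its other probe set) and Col9a1 (-0.28 ± 0.11). The median difference of the 19 was -0.10, with 4 positive and 15 negative and 0 past an adjusted p of 0.05.

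**Figure D2:**
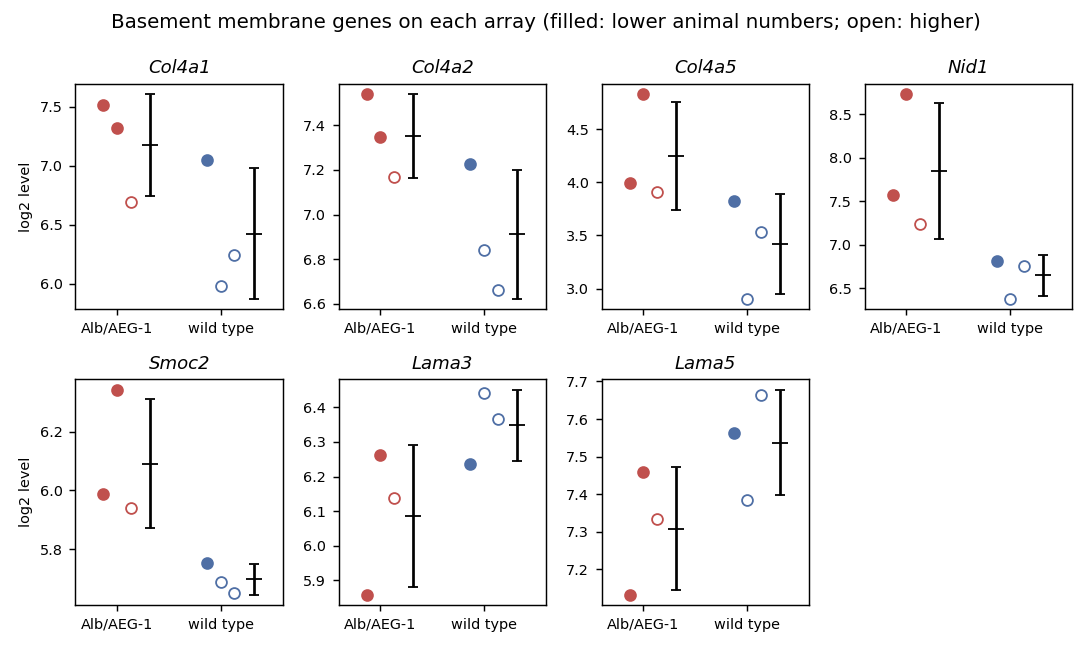
Log2 level (vertical axis, a separate scale in each panel) of 7 basement membrane genes on each array, Alb/AEG-1 left of wild type; bars give the mean ± SD (n = 3), filled points the lower and open points the higher animal numbers. Nid1, Smoc2 and Col4a5 do not overlap between the genotypes, while in Col4a1 and Col4a2 the wild-type mouse of the lower numbers lies within the Alb/AEG-1 range.

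Endothelium is a source of basement membrane, so its markers are given beside these values. Of 11 endothelial markers 4 were positive and 7 negative, with a median difference of -0.02. Their mean level per array lay between 6.26 and 6.36 in Alb/AEG-1 tumours and between 6.24 and 6.35 in wild-type tumours. Lyve1, a hyaluronan receptor of sinusoidal endothelium and some macrophages, differed by 0.52 ± 0.22 and was the 1 of the 11 (9.09%, against 8.33% of all genes) at an unadjusted p below 0.05 in limma. It differed by 0.13 among the lower-numbered mice and by 1.09 among the higher-numbered. The part of these cells in the type IV collagen values was not tested.

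The matrix glycoproteins and elastic fibre proteins had differences below 0 in all 4 measured members, of which Fn1 turned positive with median centring, and none passed the threshold. Fn1, encoding fibronectin, which hepatocytes also secrete, was at 12.38 ± 0.05 (SD, n = 3) in Alb/AEG-1 tumours and 12.39 ± 0.05 in wild-type tumours (difference -0.0041 ± 0.08, SE). Sparc, a collagen-binding matricellular protein, was at 8.20, 8.10 and 8.26 in Alb/AEG-1 tumours and at 8.48, 8.58 and 8.18 in wild-type tumours. Wild-type replicate 3 lay within the Alb/AEG-1 range, and the difference was -0.23 ± 0.12 (limma adjusted p = 0.638). Its other probe set differed by -0.0041. Fbln1, a fibulin of elastic fibres and basement membranes, differed by -0.17 ± 0.14 and by -0.0683 without wild-type replicate 3. Eln, the elastin gene, differed by -0.14 ± 0.12 and by -0.0498 without Alb/AEG-1 replicate 3.

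The small leucine-rich proteoglycans, which coat collagen fibrils, were measured in all 3 members. Bgn, encoding biglycan, was at 9.14, 8.64 and 8.98 in Alb/AEG-1 tumours and at 9.46, 9.07 and 9.14 in wild-type tumours. Alb/AEG-1 replicate 1 lay within the wild-type range. The difference was -0.30 ± 0.16 (limma adjusted p = 0.638), and all 3 probe sets of Bgn differed in that direction, by -0.30 to -0.20. It was -0.16 without Alb/AEG-1 replicate 2, -0.57 among the lower-numbered mice and -0.12 among the higher-numbered. Lum, encoding lumican, differed by -0.20 ± 0.18, and by -0.0413 without wild-type replicate 3. Dcn, encoding decorin, differed by -0.0046 ± 0.11.

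Among the crosslinkers, Loxl1 had the lowest p of the 34 genes. It encodes a lysyl oxidase-like enzyme needed for elastic fibre assembly in mice. Its levels were 4.70, 4.72 and 4.44 in Alb/AEG-1 tumours and 5.03, 5.13 and 5.18 in wild-type tumours. Every Alb/AEG-1 value lay below every wild-type value, with a difference of -0.50 ± 0.10 (SE, limma unadjusted p = 0.0017, adjusted p = 0.596). It was -0.32 among the lower-numbered mice and -0.72 among the higher-numbered, and between -0.55 and -0.40 over the arrays left out in turn. Loxl1 had 1 probe set, which lay below the median level of the array. Lox, the founding lysyl oxidase, differed by 0.04 ± 0.11 on a dim probe set (percentile 21.3).

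Genes around Loxl1 in elastic fibre assembly were measured in 12 cases, of which 2 were positive and 10 negative, with a median of -0.15. That median was -0.11 among the lower-numbered mice and -0.006 among the higher-numbered. The difference had the same sign in both ranges in 4 of the 12 genes, against 54% of all genes. In limma 0 passed an adjusted p of 0.05, and 1 (Mfap5, 8.33%, the share of all genes) had an unadjusted p below 0.05. Mfap5, a microfibril-associated protein, was at 4.49, 4.39 and 4.40 in Alb/AEG-1 tumours and at 4.56, 4.79 and 4.69 in wild-type tumours (-0.25 ± 0.09, no overlap). Mfap4 and Mfap2, from the same list, differed by -0.27 ± 0.13 and -0.21 ± 0.10, and Ltbp2, a latent TGF-beta binding protein, by -0.15 ± 0.09. The probe sets of Mfap5, Mfap4 and Ltbp2 were dim, the last at percentile 10.8. Of 16 genes of collagen processing 7 were positive and 9 negative, with a median of -0.01. Named from that list were Loxl3, another lysyl oxidase-like enzyme (-0.32 ± 0.13), P3h1, a collagen prolyl hydroxylase (0.26 ± 0.09), the collagen chaperone gene Serpinh1 (-0.27 ± 0.12) and Ppib (0.16 ± 0.17). All had limma adjusted p above the threshold.

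The proteases and their inhibitors are best read together, since MMP14 on the cell surface activates the secreted MMP2 in a complex with TIMP2. On the brightest probe sets the difference was positive for Mmp14 and negative for Mmp2 and Timp2, and none passed an adjusted p of 0.05. For Mmp14 the genotypes overlapped and the unadjusted p in limma was 0.0537. The 250 bases before the starts of Mmp14 and Timp2 are shown because the brightest probe sets of these partners had differences of opposite sign. GC boxes, GGGCGG on either strand, are in capitals. The windows are those of the RefSeq table (GRCm38.p6), at chr14:54431348-54431597 on the plus strand for Mmp14 and chr11:118355412-118355661 on the minus strand for Timp2, and overlap no annotated gene.
Mmp14: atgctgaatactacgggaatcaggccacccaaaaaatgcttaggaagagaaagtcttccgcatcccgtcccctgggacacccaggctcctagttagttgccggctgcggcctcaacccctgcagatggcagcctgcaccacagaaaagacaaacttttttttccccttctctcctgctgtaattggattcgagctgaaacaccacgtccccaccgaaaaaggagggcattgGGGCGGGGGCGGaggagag
Timp2: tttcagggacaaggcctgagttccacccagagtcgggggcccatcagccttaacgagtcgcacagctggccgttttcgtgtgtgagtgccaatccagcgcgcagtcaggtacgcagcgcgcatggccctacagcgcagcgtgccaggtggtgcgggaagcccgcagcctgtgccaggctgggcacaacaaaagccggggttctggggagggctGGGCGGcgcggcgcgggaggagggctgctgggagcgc
Mmp14 holds 2 adjacent GC boxes and Timp2 holds 1. Of the 34 genes, 20 had promoter windows in the RefSeq table, 22 windows of 300 bases in all. A GC box on either strand was found in 15 of the 22 (68.2%), against 35.7% of 32851 windows of the same length, and a CCAAT box (CCAAT, either strand) in 8 (36.4%), against 37.4%.

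Mmp2, a gelatinase that cuts type IV and denatured collagen, was at 5.23, 5.39 and 5.14 in Alb/AEG-1 tumours and at 5.44, 5.58 and 5.70 in wild-type tumours. The genotypes did not overlap, and the difference was -0.32 ± 0.11 (SE, limma unadjusted p = 0.018, adjusted p = 0.602). Mice of the lower numbers differed by -0.13 and those of the higher by -0.50. The other Mmp2 probe set differed by 0.05, and the mean of both probe sets by -0.13, so the direction rests on 1 probe set. The unadjusted p of Mmp2 was above 0.05 when wild-type replicate 3 or Alb/AEG-1 replicate 1 or 3 was left out. Mmp14 was at 7.999, 8.15 and 7.84 in Alb/AEG-1 tumours and at 7.72, 7.34 and 7.88 in wild-type tumours. Wild-type replicate 3 lay above Alb/AEG-1 replicate 3, and the difference was 0.35 ± 0.15 (limma adjusted p = 0.618) and 0.20 without wild-type replicate 2. The other Mmp14 probe set, a dim one, differed by 0.11. Mmp9, a gelatinase of neutrophils and macrophages, differed by 0.01 ± 0.08, with all 6 values between 4.65 and 4.74.

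The TIMP genes differed downwards in all 3 members. Timp2 was at 6.90, 6.62 and 6.91 in Alb/AEG-1 tumours and at 7.09, 7.14 and 7.01 in wild-type tumours. Every Alb/AEG-1 value was below every wild-type value, with a difference of -0.27 ± 0.10 (limma unadjusted p = 0.0344, adjusted p = 0.611). All 6 probe sets of Timp2 had a negative difference, between -0.34 and -0.0098. The difference was -0.17 without Alb/AEG-1 replicate 2, and the unadjusted p was above 0.05 when that array or wild-type replicate 1 or 2 was left out. With the range as a term in limma Timp2 differed by -0.25 (unadjusted p = 0.0683), with -0.33 among mice of the lower numbers and -0.16 among those of the higher. Timp1, which is induced in activated stellate cells, differed by -0.20 ± 0.10 with overlap, and Timp3, a matrix-bound inhibitor, by -0.10 ± 0.10 with 4 of 4 probe sets negative. The Timp1 probe set was dim, at percentile 26.6.

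Of 25 further metalloproteinases and inhibitors, 10 were positive and 15 negative, with a median difference of -0.08. In limma 0 passed an adjusted p of 0.05. Adam17, the sheddase of tumour necrosis factor, was at 6.63, 6.69 and 6.53 in Alb/AEG-1 tumours and at 7.18, 6.93 and 7.07 in wild-type tumours. The genotypes did not overlap, all 3 probe sets were negative, and the difference was -0.44 ± 0.10 (limma unadjusted p = 0.00214, adjusted p = 0.596). Its relative Adam10 differed by 0.28 ± 0.09, with 2 of 3 probe sets positive. Reck, a membrane-anchored inhibitor of metalloproteinases, differed by -0.39 ± 0.15, and by -0.2349 (unadjusted p = 0.0874 in limma) without wild-type replicate 1. Leaving out Alb/AEG-1 replicate 2 or 3, or wild-type replicate 2, also gave an unadjusted p above 0.05. Adam12 differed by -0.26 ± 0.12.

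**Figure D3:**
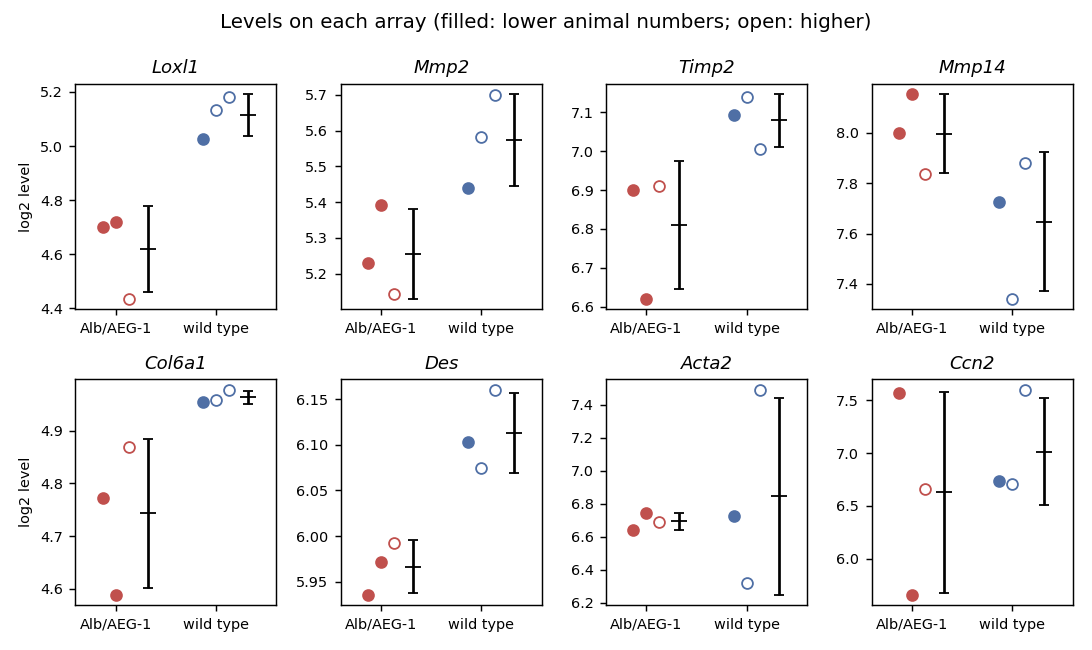
Log2 level (vertical axis, a separate scale in each panel) of 8 genes of crosslinking, proteolysis, matrix and the stellate cell on each array, Alb/AEG-1 left of wild type; bars give the mean ± SD (n = 3), filled points the lower and open points the higher animal numbers. Loxl1, Mmp2, Timp2, Col6a1 and Des do not overlap, whereas Acta2 spreads among wild-type and Ccn2 among Alb/AEG-1 mice.

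Markers of stellate cells and myofibroblasts did not differ past the threshold. Acta2, the smooth muscle actin that defines myofibroblasts, was at 6.64, 6.74 and 6.69 in Alb/AEG-1 tumours and at 6.73, 6.32 and 7.49 in wild-type tumours. The Alb/AEG-1 values lay close together inside the wild-type range, with an SD of 0.05 against 0.60. The difference was -0.15 ± 0.26 (limma adjusted p = 0.873), and 0.17 without wild-type replicate 3. The probe set is of a type that can also bind related actin transcripts.

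Tagln, an actin-binding protein of contractile cells, followed the same order among wild-type mice, at 6.91, 6.51 and 6.69 in Alb/AEG-1 tumours and at 6.81, 6.50 and 7.08 in wild-type tumours (-0.09 ± 0.17). Des, encoding the intermediate filament desmin of rodent stellate cells, was at 5.94, 5.97 and 5.99 in Alb/AEG-1 tumours and at 6.10, 6.08 and 6.16 in wild-type tumours. The genotypes did not overlap, but the difference was small, -0.15 ± 0.08 (limma adjusted p = 0.638). Lrat, the enzyme that esterifies retinol for storage and a marker of quiescent stellate cells, was at 5.13, 5.03 and 5.09 in Alb/AEG-1 tumours and at 5.61, 5.67 and 4.87 in wild-type tumours. Wild-type replicate 3, which had the highest Acta2, had the lowest Lrat. The Lrat difference was -0.30 ± 0.20 (limma adjusted p = 0.685) and -0.55 without that replicate.

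Vim, encoding vimentin of mesenchymal cells and macrophages, differed by 0.22 ± 0.19 on its brightest probe set, which can also bind related transcripts, and by 0.0147 without wild-type replicate 2. A more specific probe set was at 6.96, 7.12 and 7.03 in Alb/AEG-1 tumours and at 6.73, 6.37 and 6.74 in wild-type tumours (0.42 ± 0.12, limma unadjusted p = 0.00897, no overlap), and 3 of 3 probe sets were positive. The more specific probe set differed by 0.31 among the lower-numbered mice and by 0.47 among the higher-numbered. On the brightest probe set these differences were 0.18 and 0.13. Macrophage markers also differed in the positive direction, with 13 of 13 positive and a median difference of 0.43. That median was 0.0057 among the lower-numbered mice and 0.87 among the higher-numbered, so its split by animal number was unlike that of Vim. The mean level of the macrophage markers per array was 7.35, 7.67 and 7.93 in Alb/AEG-1 tumours and 7.41, 6.97 and 7.09 in wild-type tumours. Their part in the Vim values was not tested.

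Further genes of stellate cells, not all particular to the quiescent state, were measured in 14 cases, 4 positive and 10 negative, with a median of -0.09. None was below an unadjusted p of 0.05 in limma. Named by the smallest p were the neurotrophin receptor gene Ngfr (-0.16 ± 0.08), Angptl6 (-0.13 ± 0.09), the hepatocyte growth factor gene Hgf (-0.10 ± 0.08) and the intermediate filament gene Nes (-0.13 ± 0.11). Of 14 contractile and smooth muscle genes 6 were positive and 8 negative, with a median of -0.06, which was 0.072 with dim probe sets left out and 0.0195 without wild-type replicate 3. Tpm1, a tropomyosin present in many cell types, differed by 0.35 ± 0.10 with no overlap (limma unadjusted p = 0.00917, adjusted p = 0.596). Smtn and Cnn1, which are more restricted to smooth muscle, differed by -0.26 ± 0.10 and -0.27 ± 0.13, and Cald1 by 0.27 ± 0.16.

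The receptors and secreted signals were measured in 4 of 5 members, and none passed the threshold. Pdgfrb, the receptor for platelet-derived growth factor on stellate cells and pericytes, was at 6.39, 6.13 and 6.34 in Alb/AEG-1 tumours and at 6.38, 5.74 and 5.99 in wild-type tumours. The genotypes overlapped (0.25 ± 0.16, limma adjusted p = 0.685), and without wild-type replicate 2 the difference was 0.0994. Its sign turned with the animal number, at -0.12 among the lower and 0.47 among the higher. Pdgfra, the alpha receptor of fibroblasts, differed by -0.04 ± 0.16. Tgfb1, the main profibrotic cytokine gene, was at 4.27, 4.30 and 4.38 in Alb/AEG-1 tumours and at 4.37, 4.48 and 4.57 in wild-type tumours (-0.155 ± 0.09, limma adjusted p = 0.651), with an overlap at the edge. The Tgfb1 probe set was dim, at percentile 27.0.

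Ccn2, encoding connective tissue growth factor, a target of TGF-beta and YAP signalling, had a wider spread within Alb/AEG-1 tumours than any other of the 34 genes. It was at 7.56, 5.66 and 6.66 in Alb/AEG-1 tumours and at 6.73, 6.71 and 7.60 in wild-type tumours. High and low mice occurred in the Alb/AEG-1 group, and the difference was -0.38 ± 0.46 (limma adjusted p = 0.809). It was 0.0989 with Alb/AEG-1 replicate 2 left out. Of 19 further genes of TGF-beta signalling 15 were positive and 4 negative, with a median of 0.06, and 0 had an unadjusted p below 0.05 in limma. Their median was 0.12 among the lower-numbered mice and 0.0054 among the higher-numbered. Named from them were the integrin genes Itgb6 (0.21 ± 0.10, the sign of 1 of its 2 probe sets) and Itgav (0.21 ± 0.10), which activate latent TGF-beta, the receptor gene Tgfbr1 (0.14 ± 0.08, the sign of 1 of its 3 probe sets) and the protease gene Furin (0.14 ± 0.09). The Itgb6 probe set was dim, at percentile 13.8.

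The PDGF ligands and integrin collagen receptors had 6 positive and 6 negative of 12 measured, with a median of -0.04. Pdgfd differed by -0.20 ± 0.08, Ddr2, a collagen-binding receptor kinase of fibroblasts, by -0.18 ± 0.09, Itgb1 by -0.15 ± 0.11 and Itgb3 by -0.11 ± 0.12. The Pdgfd probe set was among the dimmest on the arrays, at percentile 0.999, so its difference lies near the floor. Among 20 further proteoglycans and matricellular proteins 9 were positive and 11 negative, with a median of -0.03. The 4 named were Ogn (-0.37 ± 0.13), Vcan (-0.32 ± 0.12, with 1 of 3 probe sets in that direction), Thbs4 (-0.29 ± 0.12) and Ccn5 (-0.26 ± 0.11). All 4 were on dim probe sets, Vcan at percentile 13.3. In both lists 0 genes passed an adjusted p of 0.05 in limma.

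Across the 34 genes, 2 wild-type mice often held the extreme values. Wild-type replicate 3 held the highest value in 13 genes (38.2%), against 17.6% of all genes, and wild-type replicate 2 the lowest in 13 (38.2%), against 18.7%. In Col6a2, Fbln1, Acta2, Tagln and Pdgfra both held at once. The median SD within a genotype was 0.15 for the 34 genes and 0.13 for all genes. The SD among wild-type tumours was the larger in 20 of the 34 genes (58.8%), against 50.8% of all genes. Within both animal number ranges the difference had the same sign in 26 of the 34 genes, against 54% of all genes.

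**Figure D4:**
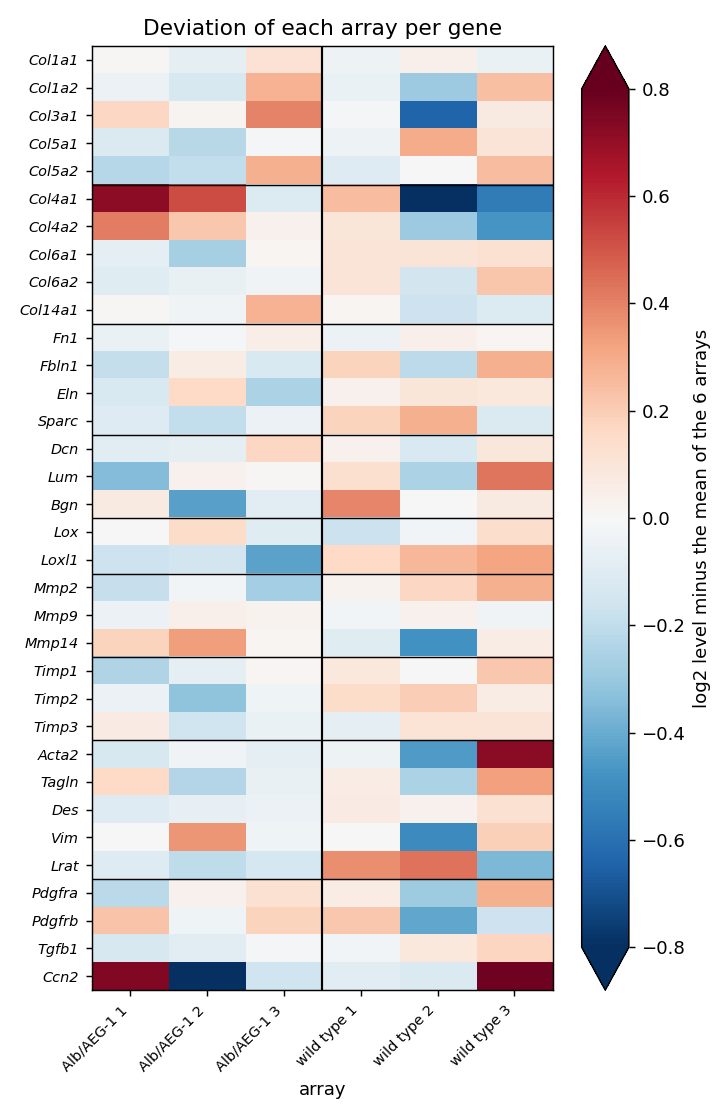
Deviation of each array (columns, 3 Alb/AEG-1 left of 3 wild type) from the gene's mean over the 6 arrays (colour, log2) for the 34 genes (rows), with lines between role groups. Wild-type replicate 3 is high and wild-type replicate 2 low in 13 genes each, and Col4a1 and Col4a2 are high in Alb/AEG-1 replicates 1 and 2.

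**Figure D5:**
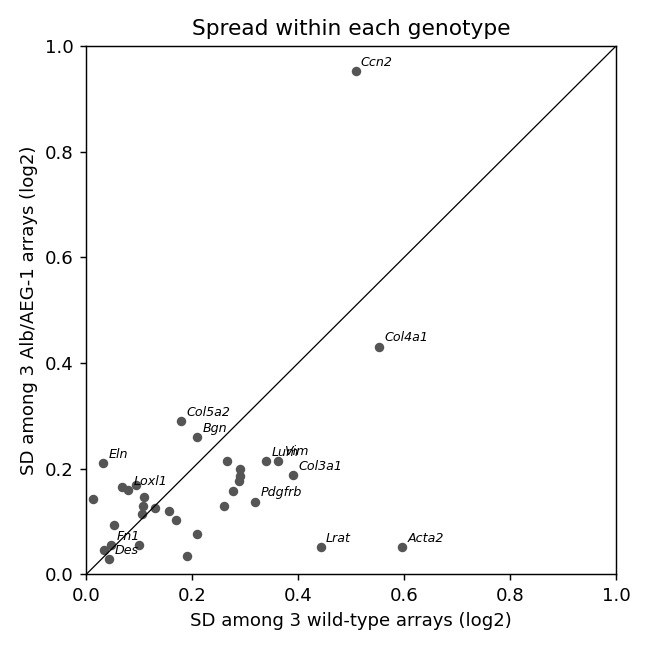
SD of the log2 level among 3 Alb/AEG-1 arrays (vertical axis) against that among 3 wild-type arrays (horizontal axis) for the 34 genes, with a line of equal spread. Acta2 lies at 0.05 and 0.60 and Lrat at 0.05 and 0.44, far below the line, and Ccn2 at 0.95 and 0.51 above it.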

How the data were processed

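Tumour RNA was isolated with Trizol and 5 µg was made into biotin-labelled cRNA, per the labels' protocols. The deposited values are log2 levels that the authors made with RMA, per the submitters' processing notes (no version given); RMA equalizes the distributions of the arrays, which would hide a change common to most genes. Of 22690 probe sets, 64 controls were left out; of the 22626 tested, 20380 carried 1 symbol in the platform annotation, 691 several and 1555 none. Low values were not filtered. Groups came from the genotype labels and replicate numbers from accession order. No 2 arrays were identical.

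The genotypes were compared with limma 3.58.1 in R 4.3.3 (lmFit, eBayes, 2-sided). Its p-values have 7.53 degrees of freedom in all and were adjusted by Benjamini-Hochberg across the 22626 probe sets. The model was tested on simulated data drawn with normal errors and independent probe sets. Such data cannot show how well these assumptions hold for the tumours. The number of arrays limits the precision. Probe sets of the types _a_at, _s_at and _x_at, which can bind related transcripts, stood for 8 of the 34 genes (Col1a2, Col3a1, Col6a2, Col14a1, Fbln1, Acta2, Vim and Pdgfrb). The genes and lists were chosen with earlier results of these data known, and lists are given as counts and medians, untested. Every array is shown for those of the 34 genes with an unadjusted p below 0.05 in limma or no overlap. It is also shown for the smallest p of each role group, and for Col1a1, Acta2, Pdgfrb and Tgfb1. Of further genes that meet the same rule, the text gives array values for Nid1, Col4a5, Mfap5 and Adam17. It does not give them for others, such as Col13a1 and Tpm1. Up to 4 genes of smallest p are named from each further list. Array values of Col3a1, Mmp14, Vim, Lrat, Tagln and Ccn2, those of second probe sets, and Lyve1 were added after they were seen. Alternatives were moderation with a trend or robustly, another quantile normalization, centring on medians, filters on dim and on cross-binding probe sets, averaging a gene's probe sets, array weights, a term for animal number range, and each array left out. Plots were made in Python 3.11.15 with matplotlib 3.10.9.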

Additional observations from a re-analysis of the deposited data

How the results depend on the processing

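Under 15 alternatives none of the 34 genes passed an adjusted p of 0.05 in limma, the lowest being 0.339, and 22 of the 34 kept their sign throughout. No paired analysis was possible because the labels give no replicate numbers shared between genotypes. An alternative planned for values on a linear scale did not apply. The causes of the changes below were not tested. Without cross-binding probe sets Col14a1 was at -0.1671, the value of its other probe set. With median centring Dcn was at 0.0079 and Fn1 at 0.0085. With a term for animal number range Col5a2 was at 0.0242, Dcn at 0.0294 and Fn1 at 0.0229. With a gene's probe sets averaged, Lox was at -0.0294 and Mmp9 at -0.0156. With each array left out in turn, the difference ran between -0.4163 and 0.1714 for Acta2, -0.8526 and 0.0989 for Ccn2, -0.0152 and 0.0778 for Col1a1, -0.0613 and 0.2042 for Col1a2, -0.2641 and 0.0020 for Col5a2, -0.0885 and 0.0404 for Dcn, -0.0324 and 0.0218 for Fn1, -0.0410 and 0.1145 for Lox, -0.0048 and 0.0376 for Mmp9, -0.1951 and 0.0906 for Pdgfra, and -0.2374 and 0.0523 for Tagln.

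The median over the 34 genes stayed negative, between -0.1451 and -0.0181. With dim probe sets left out, 21 of the 34 genes remained. The proteases then had a median of 0.3494, from Mmp14 alone, the laminins and basement membrane genes -0.0117, the further collagens -0.1651 and the neutrophil markers 0.3593. The further collagens had -0.0525 after quantile normalization, -0.0115 without cross-binding probe sets and -0.0589 with probe sets averaged, and the hepatocyte markers -0.0694 without cross-binding probe sets. With arrays left out, medians ran between -0.1639 and -0.0529 for further collagens, -0.2136 and -0.0997 for glycoproteins and elastic fibre proteins, and 0.0065 and 0.0988 for laminins and basement membrane genes. Of the 34 genes, 4 were higher at an unadjusted p below 0.05 without cross-binding probe sets, and 0 to 3 with arrays left out. In the lower direction there were 5 after quantile normalization and 1 without dim probe sets. Over all probe sets, the count past an adjusted p of 0.05 in limma was 2 higher with probe sets averaged, 0 higher with a term for animal number range (against 1), 1 lower with trend moderation (against 0), and 0 to 1 in either direction with arrays left out. Signs of other medians turned too, among them these. With dim probe sets left out the contractile genes were at 0.072 and the further proteoglycans at 0.0675. Without wild-type replicate 3 the contractile genes were at 0.0195, the collagen processing genes at 0.0526 and the stellate cell markers at 0.0523. Without wild-type replicate 2 the fibrillar collagens were at -0.0613, and without Alb/AEG-1 replicate 2 the receptors and signals were at 0.0143. Col14a1 was at 0.0765 without Alb/AEG-1 replicate 3 and Sparc at -0.1432 without wild-type replicate 2.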

Other observations

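Markers of other cells that touch the matrix were listed beside the 34 genes, and none passed an adjusted p of 0.05 in limma. Of 4 mesothelial markers measured, 1 was positive and 3 negative. Upk3b, a uroplakin of mesothelium, was at 5.01 in Alb/AEG-1 tumours and 5.41 in wild-type tumours (mean log2 levels, difference -0.40), and Gpm6a at 3.16 in Alb/AEG-1 tumours and 3.51 in wild-type tumours (difference -0.35), both without overlap. These were 2 of the 4 (50.0%), against 15.1% of all genes without overlap. Both probe sets were dim, that of Gpm6a at percentile 9.99, and the other Gpm6a probe set differed by -0.04. Of 8 cholangiocyte markers 3 were positive and 5 negative, with a median difference of -0.03. Of 9 neutrophil markers 3 were positive and 6 negative, with a median of -0.13, which was 0.3593 with dim probe sets left out. The calprotectin gene S100a9 was at 6.10 in Alb/AEG-1 tumours and 5.74 in wild-type tumours, and its partner S100a8 at 5.36 in Alb/AEG-1 tumours and 4.83 in wild-type tumours, both with overlap. Their signs turned with the animal number: S100a9 differed by 1.42 among the lower and -0.62 among the higher, and S100a8 by 1.92 among the lower and -0.68 among the higher. Mpo, the myeloperoxidase gene, was at 3.55 in Alb/AEG-1 tumours and 3.90 in wild-type tumours, without overlap. Ltf was at 3.59 in Alb/AEG-1 tumours and 3.85 in wild-type tumours (difference -0.26), also without overlap. Csf3r was at 5.62 in Alb/AEG-1 tumours and 5.90 in wild-type tumours (difference -0.28), again without overlap. Mpo, Ltf and Csf3r were 3 of the 9 neutrophil markers (33.3%), against 15.1% of all genes without overlap. All 3 were lower in Alb/AEG-1 tumours and on dim probe sets. The 10 T and NK cell markers had a median of -0.09 with 2 positive, and the 5 B cell markers a median of -0.0038, whose sign varied with the processing. Upk3b, Gpm6a, Mpo, Ltf, Csf3r, S100a8 and S100a9 were chosen after their values were seen.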
